A study of Mus musculus with 9 samples.

Results

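The transcription factor p53, its target genes and the Bcl2 family of cell death regulators were followed as 42 mouse genes in sorted bone marrow stem and progenitor cells. The 42 genes were chosen by symbol. They were p53 itself, its 2 direct inhibitors, 20 genes grouped as its targets, 15 Bcl2 family genes and 4 of the caspase-activating step that follows. The group of 20 acts in cell cycle arrest, repair, metabolism or death. It includes relatives of p53 targets, such as Ccng2, Gadd45b, Gadd45g and Sesn3, and control by p53 was not tested for any of them. Of the 42 genes, 40 had a row in the deposited table of 14940 genes. Bcl2l2 and Bcl2a1b, both anti-apoptotic relatives of Bcl2, had no row and were not analysed here. Bik and Pmaip1 did not reach a deposited value of 10 in 3 libraries, so 38 members were tested among 13018 genes.

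The sorted cells, called LSK, lack lineage markers and carry Sca1 and Kit, a gate that holds haematopoietic stem cells and multipotent progenitors. All 9 libraries came from C57BL/6 mice, 3 in each group, and each group is named with its libraries numbered in accession order. Naive mice are labelled as naive, with no treatment. Mice of the EAE group (experimental autoimmune encephalomyelitis, a model of multiple sclerosis) were immunized with a peptide of myelin oligodendrocyte glycoprotein in complete Freund's adjuvant, and their cells were taken 3 days later. Mice of the third group had the same immunization and 3 days of SR59230A, a blocker of the beta-3 adrenergic receptor, and are called treated EAE below. No group with adjuvant alone was among the samples and the labels name no vehicle for the EAE group, so the peptide, the adjuvant and the handling cannot be told apart. Age and sex are not given in the labels, which also do not say whether mice were pooled. The libraries are bulk RNA from a mixed gate, in which fewer cells of a type and less RNA per cell cannot be told apart.

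As background, p53 is held at a low level by Mdm2, which marks it for degradation, and by Mdm4, which blocks its activity. DNA damage and other stresses release it, and it then raises genes that stop the cell cycle, repair DNA, slow growth or start apoptosis. In apoptosis, BH3-only proteins set free Bax and Bak1, which open the outer mitochondrial membrane unless Bcl2, Bcl2l1 or Mcl1 hold them back. The cytochrome c that leaves the mitochondrion assembles with Apaf1 into the apoptosome, which activates Casp9. In bone marrow, p53 limits the survival of stem cells after irradiation, and stem cells depend on Mcl1.

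The p53 protein binds DNA as pairs of half-sites, and the half-site is a 10-base sequence that reads the same by rule on both strands. The 250 bases before the gene start were searched for it in RefSeq promoters (build GRCm38.p6), which matched 35 of the 42 member symbols with 49 windows. Of the matching stretches, 4 are shown, because 2 of them lie before the called p53 targets Aen and Sesn1 and the other 2 lie before Mdm2 and Bax, textbook targets that were not called. Each runs in the direction of its gene, and the capitals mark the half-site.
Aen (chr7:78895917-78895966, plus strand): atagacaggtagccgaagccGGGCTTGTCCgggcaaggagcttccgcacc
Sesn1 (chr10:41887246-41887295, plus strand): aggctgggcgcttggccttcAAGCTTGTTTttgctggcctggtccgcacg
Mdm2 (chr10:117710915-117710964, minus strand): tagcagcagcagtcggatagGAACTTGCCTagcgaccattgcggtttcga
Bax (chr7:45467070-45467119, minus strand): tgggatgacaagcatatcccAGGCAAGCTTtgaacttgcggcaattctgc
A half-site was found in 9 of the 49 member windows (18.4%) and in 2341 of all 32851 windows (7.13%). The other 5 members with a match were Bmf, Ccng1, Gadd45a, Polk and Trp53, and none of these was called. The called members Gadd45g, Ccng2, Ddit4, Apaf1 and Bak1 had no match or no window. A full site, meaning 2 half-sites with at most 13 bases between them, was found in 0 of the 49 member windows and in 21 of all windows (0.0639%). Such a match describes the letters of the window and no more, and many known p53 sites lie in introns, outside these windows.

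The deposited values are whole numbers that sum to 8641735 to 10387955 per library, but they are not plain read counts, and the read depth is not given in the sources used here. On the log scale the 9 libraries vary in only 6 independent directions after the mean is removed, and the 2 empty directions lie 99.4% and 99.8% within the groups. Spread between libraries is therefore understated by the values alone, and the fit carried the 2 empty directions as covariates, which left 4 residual degrees of freedom. Values below are the deposited values after scaling of each library by a factor of 0.900 to 1.11. The genes of the sort gate were all present, with 8 of 8 tested and a summed value of 23600 to 25091 in naive, 19607 to 20093 in EAE and 20026 to 21013 in treated EAE. Of 10 granulocyte-monocyte progenitor genes, 9 rose in EAE against naive and 9 in treated EAE against naive, and none was at 0. Their summed value was 3750 to 4572 in naive, 17853 to 23763 in EAE and 18449 to 20051 in treated EAE. Of 8 proliferation genes tested, 6 rose in EAE and 5 in treated EAE against naive, with sums of 11312 to 11898, 15205 to 15718 and 15119 to 15271 in the order naive, EAE and treated EAE. Genes of the depleted lineages, of which Cd3e had no row and Cd8a had a mean under 10, summed to 785 to 1189, 1521 to 1704 and 1374 to 1942. Most of each sum was Itgam, with group means of 669, 1315 and 1322. Of 6 such genes tested, 2 rose (Itgam and Klrb1c) and none fell, both in EAE and in treated EAE against naive. Mature neutrophil genes, 10 of 10 tested and none at 0, summed to 2453 to 6515, 3477 to 16607 and 7573 to 16902. Of these, 2 rose in EAE and 4 in treated EAE against naive. The sums of 8 erythroid genes were 9827 to 10672, 4778 to 5138 and 5831 to 6297. Most of each sum was Car2, with group means of 8312, 3122 and 3547. Of 7 erythroid genes tested, 2 rose and 3 fell in EAE, and 3 rose and 2 fell in treated EAE against naive. Car1 also rose in treated EAE against EAE (1.32). For 8 lymphoid and B cell genes, of which 4 fell in EAE and 1 rose and 1 fell in treated EAE against naive, the sums were 15609 to 17939.9, 14657 to 20615 and 21021 to 25227. For 8 T and natural killer cell genes, of which 2 rose in EAE and 4 in treated EAE, they were 785 to 889, 1079 to 1257 and 1163 to 1224. Of these 8, 5 were tested, and Cd3g, Cd8a, Gzma and Ncr1 had means under 10. The sums of 8 stromal and endothelial genes were 3966 to 4585, 4195 to 5251 and 4796 to 5364, most of it from Pecam1 and Pdgfrb. Of 6 such genes tested, 1 rose (Pdgfrb) and 2 fell (Cdh5 and Emcn) in EAE against naive. In treated EAE against naive, 1 rose (Pdgfrb) and 1 fell (Emcn). The part of these shifts in the results below was not tested.

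Against naive mice, the p53 and Bcl2 family genes changed in few places after immunization, by 1.29-fold to 2.1-fold. In EAE, 5 of the 38 tested members passed the test. Gadd45g, Apaf1, Bak1 and Aen rose, and Sesn1 fell. In treated EAE, 7 passed against the same naive libraries, namely those 5 in the same directions, with Ddit4 higher and Ccng2 lower beside them. No member passed between treated EAE and EAE. The test was limma-trend on log2(scaled value + 1) with p-values adjusted by the Benjamini-Hochberg method over all 13018 genes, and a gene is called at an adjusted p under 0.05. Differences are given on that log2 scale with their standard error, 3 libraries a group.

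**Figure D1:**
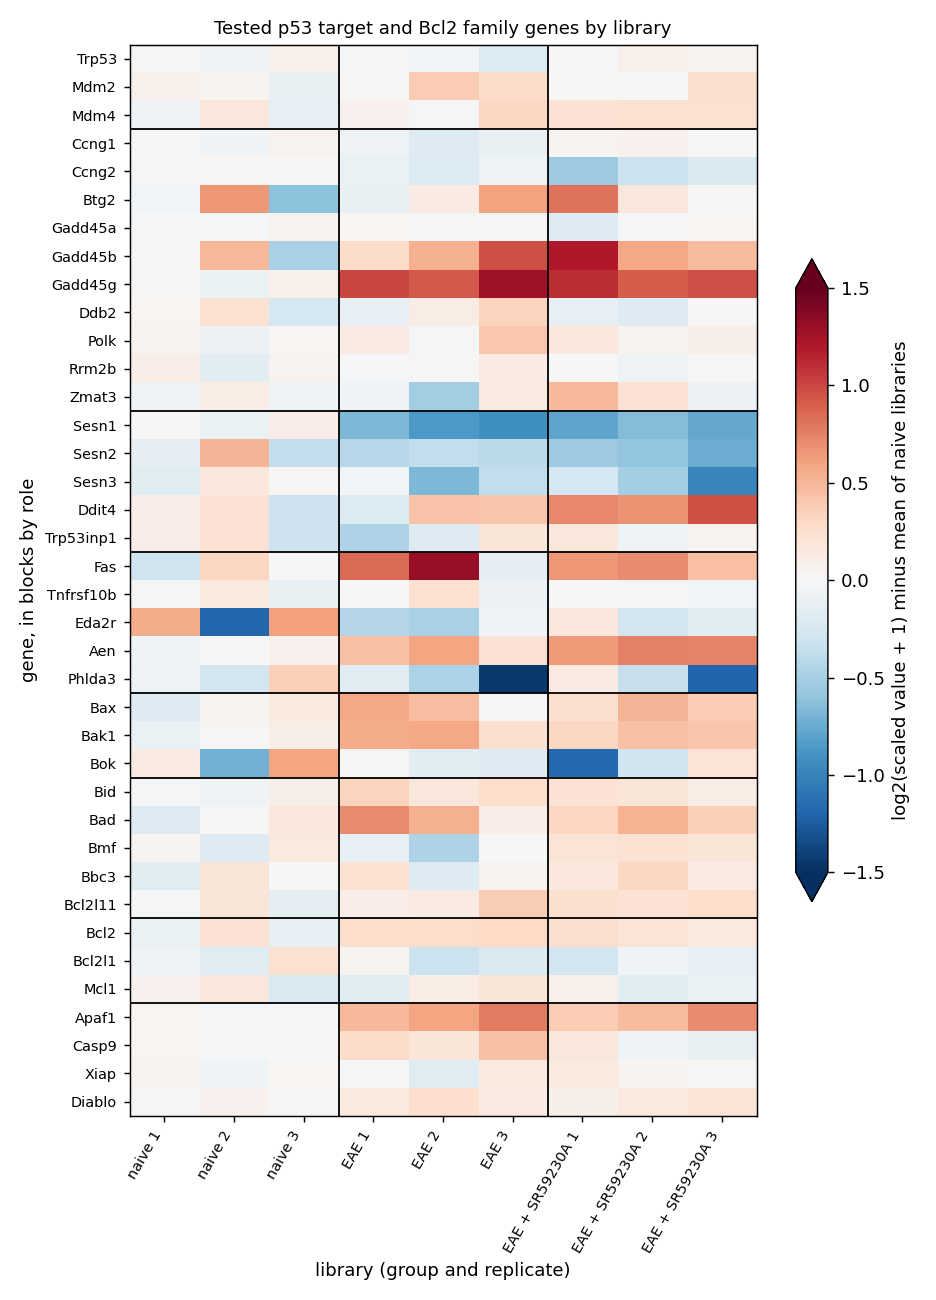
Each row is a tested member, ordered by role, and each column a library. Colour is the log2(scaled value + 1) minus the gene's mean over the 3 naive libraries. Sesn1 is low and Gadd45g and Apaf1 are high in all 6 libraries from immunized mice, while most rows stay pale.

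These shares lie close to those of the whole table. EAE against naive called 13.2% of members (4 higher and 1 lower) against 14.2% of all tested genes (9.13% higher and 5.1% lower). Treated EAE against naive called 18.4% of members (5 higher and 2 lower) against 14.8% of all tested genes (10.2% higher and 4.61% lower). Treated EAE against EAE called 0 members against 0.00768% of all genes, which was 1 gene (0.00768% higher and 0% lower). Scaling moved the balance of directions over all genes. With upper-quartile scaling the members gave 2 higher and 1 lower in EAE and 4 higher and 2 lower in treated EAE against naive, and all tested genes gave 807 higher and 910 lower (EAE) and 835 higher and 954 lower (treated EAE), in place of 1189 and 664, and 1332 and 600. Without any scaling the members gave 2 and 1, and 3 and 2. All genes then gave 606 higher and 453 lower in EAE against naive, and 489 higher and 584 lower in treated EAE against naive with a median of -0.11. At an unadjusted p under 0.05, the comparison of treated EAE with EAE held 3 members, Ddit4, Aen and Ccng2, which is 7.89% of members against 3.87% of all genes.

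The median difference of the 38 members was 0.08 in EAE against naive and 0.09 in treated EAE against naive, where the medians of all tested genes were -0.00 and 0.01. It was -0.04 between treated EAE and EAE, against 0.01 for all genes. Groups without overlap in scaled value were seen for 11 members (28.9%) in EAE against naive, 9 (23.7%) in treated EAE against EAE and 17 (44.7%) in treated EAE against naive. For all tested genes the same shares were 39.4%, 16.2% and 48.8%. For the median member, the 95% interval reached 0.33 on either side of the estimate between treated EAE and EAE, so a difference inside that range cannot be told apart from 0 for such a gene. Both comparisons against naive mice share the naive libraries, so their calls are not independent of each other.

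**Figure D2:**
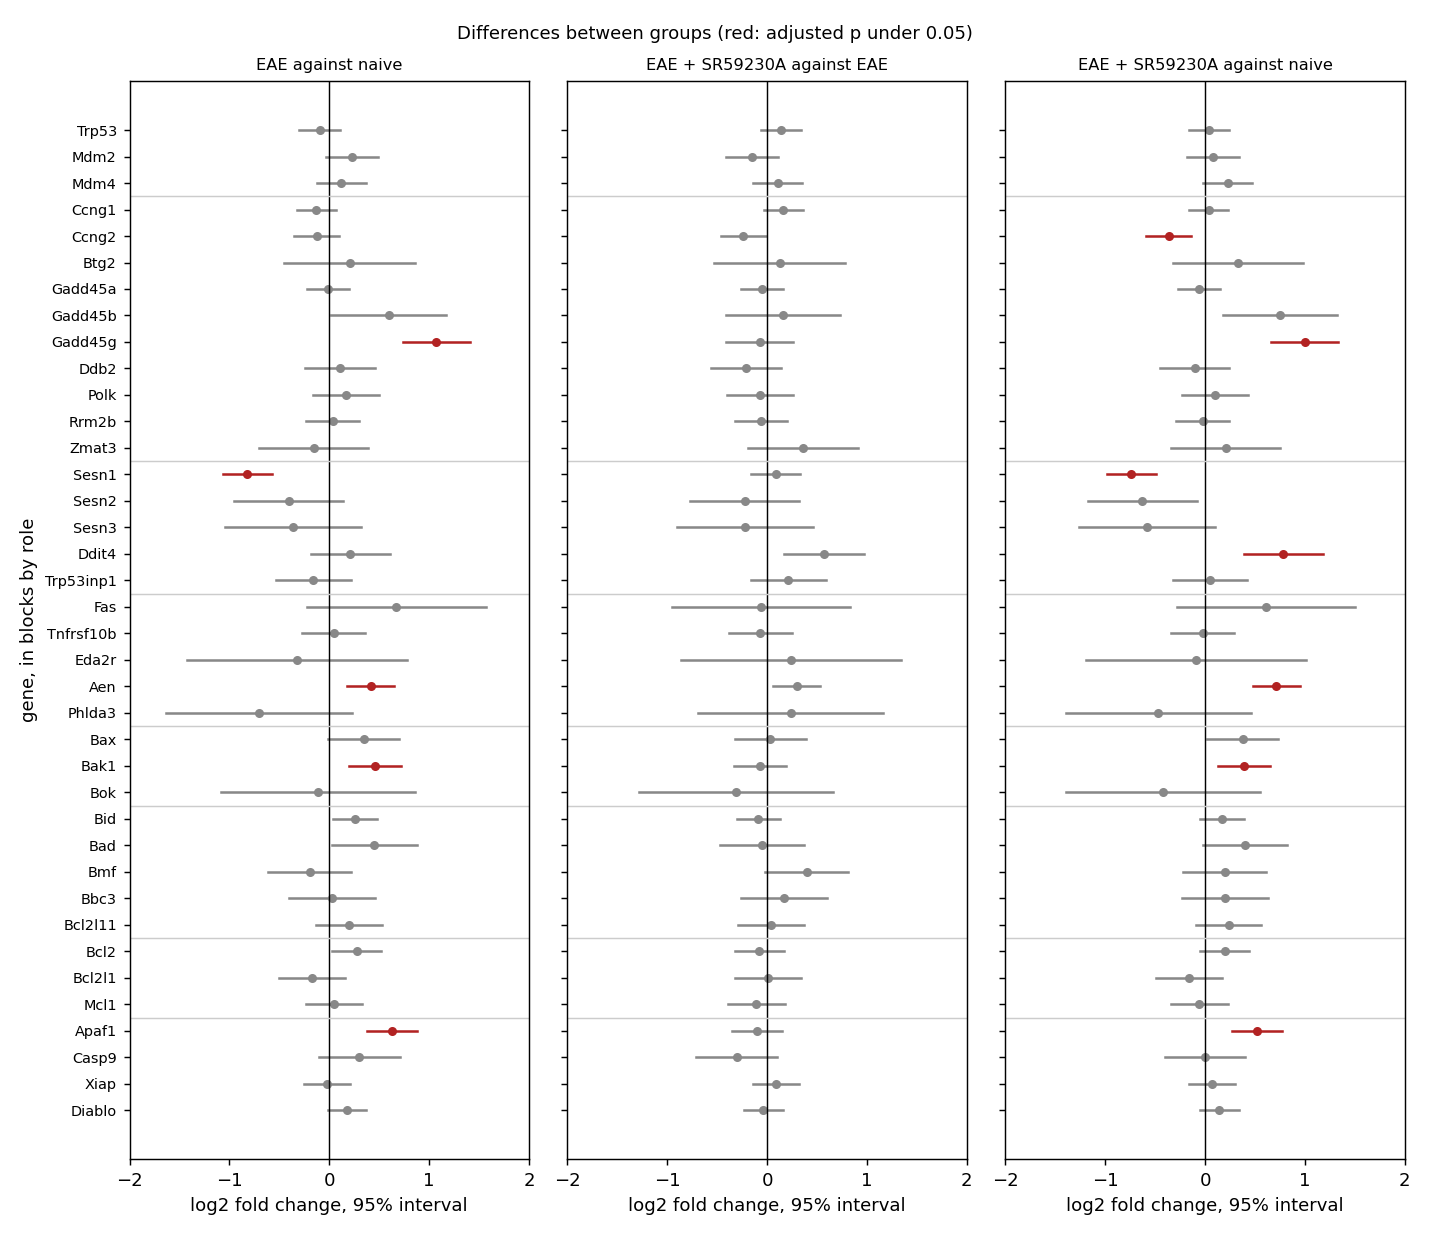
Estimated differences of the 38 tested members on the log2 scale with 95% intervals, by role, for EAE against naive, treated EAE against EAE and treated EAE against naive. The intervals of Gadd45g (0.73 to 1.41) and Sesn1 (-1.07 to -0.58) stand clear of 0 in EAE against naive, and in treated EAE against EAE the intervals of 3 members, Ddit4, Aen and Ccng2, leave out 0.

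p53 and its inhibitors did not pass the test in any comparison. Trp53, the gene of p53, measured 2291, 2208 and 2444 in naive replicates 1 to 3, 2259, 2239 and 2000.1 in EAE and 2307, 2443 and 2374 in treated EAE. Treated libraries were all above the EAE libraries, but both groups overlapped with naive mice, and the differences were -0.10 ± 0.09 in EAE against naive and 0.14 ± 0.09 in treated EAE against EAE (adjusted p = 0.519 and 0.998). Mdm2, the ubiquitin ligase that removes p53 and is itself a p53 target, had group means of 1017, 1197 and 1074 in naive, EAE and treated EAE. Its 95% interval in EAE against naive was -0.03 to 0.49. Mdm4, which binds p53 without degrading it, had group means of 1586, 1725 and 1847 in the same order. All 3 treated libraries were above all naive libraries for Mdm4, with a difference of 0.23 ± 0.11 (adjusted p = 0.194).

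Among 10 genes grouped as targets that brake the cell cycle or serve the damage response, Gadd45g rose in both immunized groups. Ccng2 fell in treated EAE. Gadd45g encodes a stress sensor that feeds into the p38 and JNK kinases and into cell cycle arrest, and is also induced by cytokines. Its values were 96.3, 89.1 and 100.5 (naive), 191, 181 and 231 (EAE) and 206, 179 and 187 (treated EAE). Every immunized library was well above every naive library, and the 2 immunized groups overlapped. The increase was 2.1-fold in EAE (1.07 ± 0.15, adjusted p = 0.00128) and 1.99-fold in treated EAE (1.0 ± 0.15, adjusted p = 0.00183).

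Ccng2 encodes cyclin G2, an atypical cyclin that is high in resting cells and slows the cycle. It measured 1001, 1029 and 1029 in naive replicates 1 to 3, 951, 887 and 969 in EAE and 699.8, 814 and 875 in treated EAE. The 3 groups did not overlap, with naive mice highest and treated EAE lowest. Ccng2 fell by 1.29-fold in treated EAE against naive (-0.36 ± 0.10, adjusted p = 0.0371), whereas EAE against naive gave -0.13 ± 0.10 and treated EAE against EAE -0.24 ± 0.10, neither of which passed (adjusted p = 0.458 and 0.998). The call was lost without naive replicate 1 (adjusted p = 0.0593), without treated EAE replicate 1 (0.0574) and without treated EAE replicate 2 (0.0533), and without the mean-variance trend (0.113).

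The other Gadd45 genes did not pass. Gadd45a, a classical p53 target of the same stress-sensor family, stayed between 627 and 741 in all 9 libraries. Gadd45b, the family member that responds to inflammatory signals, had values of 376, 536 and 270.5 (naive), 461, 547 and 742 (EAE) and 873, 567 and 527 (treated EAE), with differences of 0.59 ± 0.26 in EAE and 0.75 ± 0.26 in treated EAE against naive (adjusted p = 0.158 and 0.0747). Naive replicate 2 was as high as the lower libraries of both immunized groups. Without it the difference between treated EAE and naive was 1.0 and was called, and no other alternative called Gadd45b in that comparison. Btg2, an antiproliferative p53 target, spread in the same way, with 1866, 3012 and 1255 in naive replicates 1 to 3, 1779, 2085 and 2917 in EAE and 3375, 2157 and 1926 in treated EAE. Within each group, naive replicate 2, EAE replicate 3 and treated EAE replicate 1 were the highest for both genes.

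The same libraries were the highest of their groups in the summed value of 17 early-response genes such as Fos, Jun and Egr1, which many stimuli induce within minutes. That list was chosen after the spread of Btg2 and Gadd45b had been seen. The sum was 99606, 150816 and 67618 in naive replicates 1 to 3, 92521, 122120 and 152594 in EAE, and 177253, 119244 and 114556 in treated EAE. The groups overlapped. Of the 38 tested members, 6 (15.8%) peaked in these libraries in all 3 groups, namely Btg2, Gadd45b, Zmat3, Trp53inp1, Bcl2 and Mcl1, as did 1133 of all 13018 genes (8.7%). Btg2 and Gadd45b are counted among these 6, although their spread had been seen before the list was chosen. The share of members was therefore partly set by that choice, and no conclusion is drawn from its difference from the share of all genes. With the early-response level as a further term, Gadd45b was called in EAE against naive at 0.36 and Sesn2 in treated EAE against naive at -0.84. Ccng2 was then no longer called in treated EAE against naive (adjusted p = 0.0749). The list had been chosen with the spread of Gadd45b in view, so the call of Gadd45b with this term was not independent of that choice. Of the list, Socs3 (2.10), Ier3 (0.72) and Klf6 (0.74) were themselves called in EAE against naive, and the other listed genes were not. Atf3 was close to the threshold there (2.44, adjusted p = 0.0506). In treated EAE against naive, Socs3 (2.10), Ier3 (0.72), Klf6 (1.11) and Atf3 (2.73) were called. The early-response term thus holds genes that differed between the groups.

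**Figure D3:**
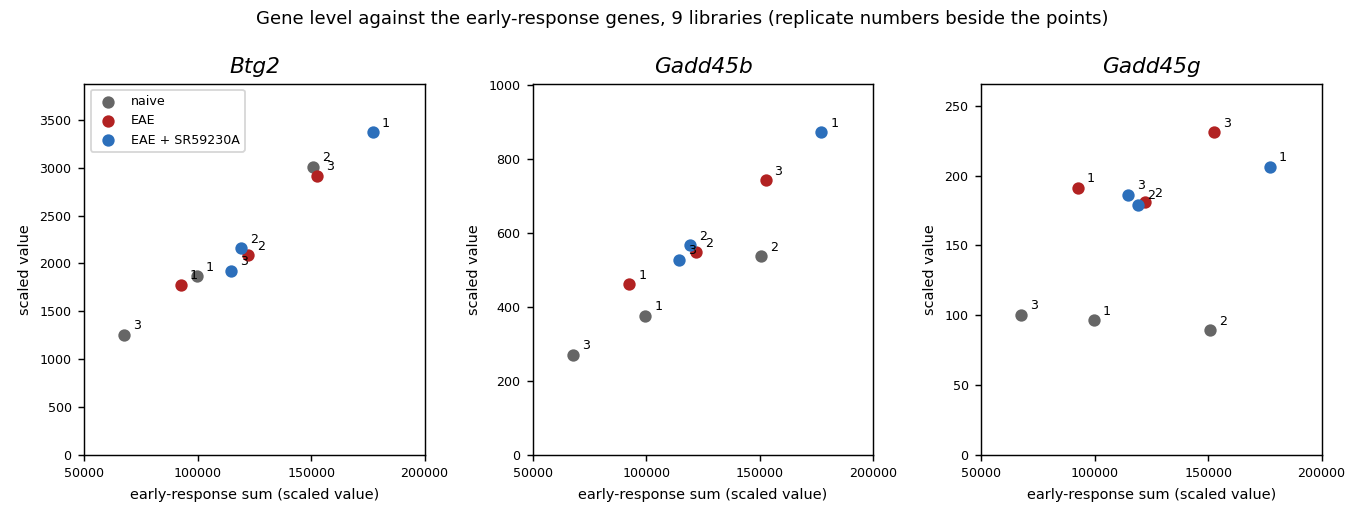
Scaled value of Btg2, Gadd45b and Gadd45g in the 9 libraries (vertical) against the summed scaled value of the 17 early-response genes (horizontal), coloured by group with replicate numbers. Naive replicate 2, EAE replicate 3 and treated EAE replicate 1 lie farthest to the right in their groups and are highest for Btg2 and Gadd45b, while Gadd45g separates naive from immunized mice across that range.

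Ccng1 encodes cyclin G1, a p53 target that feeds back on Mdm2, and its differences were -0.13 ± 0.09 in EAE against naive and 0.16 ± 0.09 in treated EAE against EAE. The groups did not overlap in either of these, lower in EAE each time, yet neither passed. Ddb2 recognises ultraviolet damage for excision repair and had group means of 304, 327 and 280.1. Polk, a DNA polymerase that copies past lesions, had group means of 165, 187 and 177. Rrm2b, the ribonucleotide reductase subunit that p53 induces for repair, had group means of 293, 299.6 and 287. For Zmat3, a p53-induced regulator of RNA splicing, they were 57.9, 52.9 and 67.7, and as for the 3 repair genes no difference passed.

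Of the 5 genes grouped as targets that counter oxidative stress or restrain growth signalling, Sesn1 fell in both immunized groups. Ddit4 rose in treated EAE. Sesn1 encodes sestrin 1, which restrains the growth kinase complex mTORC1 and lowers reactive oxygen. Its scaled values were 620.4, 576 and 659 in naive replicates 1 to 3, 387, 339 and 327 in EAE and 357, 392 and 363 in treated EAE. All immunized libraries were below all naive libraries, with the lowest naive library at 576 and the highest immunized one at 392. It fell 1.77-fold in EAE (-0.82 ± 0.11, adjusted p = 0.000927) and 1.67-fold in treated EAE (-0.74 ± 0.11, adjusted p = 0.00173), and between the immunized groups the difference was 0.08 ± 0.11. The Sesn1 promoter stretch with its half-site is printed above.

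Ddit4, also called Redd1, shuts down mTORC1 under stress, and glucocorticoids and low oxygen also raise it. It measured 816, 878 and 609 in naive replicates 1 to 3, 660.1, 1018 and 1012 in EAE and 1249, 1215 and 1470.3 in treated EAE. The treated libraries were the 3 highest of the 9, and EAE overlapped with naive. Ddit4 rose 1.72-fold in treated EAE against naive (0.78 ± 0.18, adjusted p = 0.0155), while EAE against naive gave 0.21 ± 0.18 (adjusted p = 0.475). Directly against EAE, the estimate was 0.57 ± 0.18 with an interval of 0.17 to 0.97, the largest among the members in that comparison, and did not pass over all genes (adjusted p = 0.998). The call against naive was lost with a robust prior (adjusted p = 0.0523) and without the trend (0.1).

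The other sestrins had lower estimates in the immunized groups that did not pass. Sesn2, which senses leucine for mTORC1, had group means of 83.5, 60.8 and 51.9 in naive, EAE and treated EAE, and its difference of -0.63 ± 0.25 in treated EAE against naive had an adjusted p of 0.11. The naive values of Sesn2 were 73.0, 115.6 and 62.0, with replicate 2 well above the others. Without naive replicate 3, the lowest of them, the difference was -0.81 and was called. It was also called when the empty directions were not modelled (-0.63) and with the early-response level as a further term. Sesn3, a sestrin that FoxO factors control, had group means of 38.2, 29.9 and 25.6. For Sesn2 and Sesn3 the treated libraries were below all naive libraries. Trp53inp1, a p53-induced nuclear protein that promotes p53 activity and autophagy, ranged from 910.2 in EAE replicate 1 to 1457 in naive replicate 2, without order by group.

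**Figure D4:**
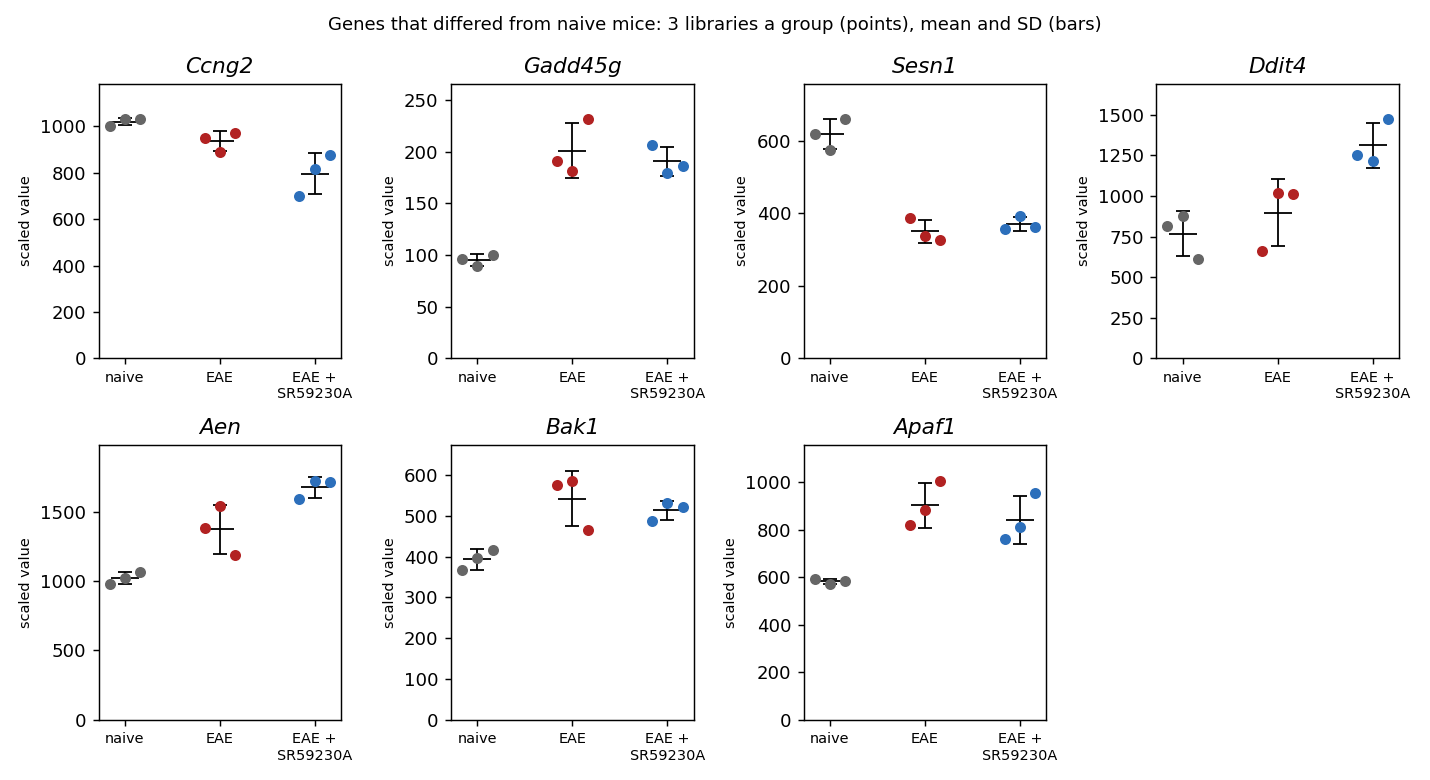
Scaled values of the 7 members called in a comparison against naive, with a point for each of the 3 libraries in a group and the group mean with its SD. Gadd45g and Sesn1 separate both immunized groups from naive, and Ddit4 and Ccng2 are most distant from naive in treated EAE.

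Among death receptors and other pro-apoptotic targets, Aen was the only one of 5 called. Aen, apoptosis-enhancing nuclease, is a p53 target that digests DNA and RNA in dying cells. It measured 980.2, 1024 and 1068 in naive replicates 1 to 3, 1385, 1544 and 1190.3 in EAE and 1589.8, 1723 and 1718 in treated EAE. The 3 groups did not overlap, with naive lowest and treated EAE highest. Aen rose 1.34-fold in EAE (0.42 ± 0.11, adjusted p = 0.0243) and 1.64-fold in treated EAE (0.71 ± 0.11, adjusted p = 0.00167). The step from EAE to treated EAE was 0.30 ± 0.11 with an interval of 0.06 to 0.53, and did not pass over all genes (adjusted p = 0.998). In EAE against naive the call was lost without naive replicate 1 (adjusted p = 0.062) and with upper-quartile scaling (0.0544) or no scaling (0.106).

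Fas, the death receptor for Fas ligand, was low, at 12.2, 19.0 and 15.0 (naive), 28.0, 38.9 and 13.5 (EAE) and 24.4, 25.5 and 21.1 (treated EAE). Treated libraries were above naive ones, and EAE replicate 3 fell among the naive values. Its difference was 0.67 ± 0.41 in EAE (adjusted p = 0.308). Without EAE replicate 3, the lowest EAE library, it was 1.08 and was called, and no other alternative called Fas. Tnfrsf10b, the mouse receptor for the death ligand TRAIL, had group means of 186, 192 and 182. Eda2r, a receptor of the tumour necrosis factor family that p53 induces, and Phlda3, a p53-induced inhibitor of the kinase Akt, did not pass, with ranges over the 9 libraries of 6.63 to 25.4 and 14.6 to 53.5.

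Of the 3 pore-forming effectors of the Bcl2 family, Bak1 rose in both immunized groups. Its values were 366, 396 and 416 (naive), 575, 585 and 465 (EAE) and 486, 531 and 522 (treated EAE). All 6 immunized libraries were above the 3 naive ones, and EAE and treated EAE overlapped. The rise was 1.38-fold in EAE (0.46 ± 0.12, adjusted p = 0.0252) and 1.31-fold in treated EAE (0.39 ± 0.12, adjusted p = 0.0495). Without naive replicate 1 neither call held (adjusted p = 0.0648 and 0.114), and the second was also lost without naive replicate 2 (0.054) and without treated EAE replicate 2 (0.0997) or 3 (0.0756). Scaling mattered as well, since both were lost with upper-quartile scaling (adjusted p = 0.0527 and 0.117).

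Bax, the other main effector and a p53 target whose promoter stretch is printed above, measured 289.9, 342 and 366 in naive replicates 1 to 3, 494, 458 and 328 in EAE and 392, 472 and 432 in treated EAE. Treated libraries were above all naive libraries, and in EAE replicate 3 lay among the naive values. The difference was 0.35 ± 0.16 in EAE and 0.38 ± 0.16 in treated EAE against naive (adjusted p = 0.188 and 0.138), close in size to those of Bak1 but not called. Without EAE replicate 3, the lowest EAE library, these were 0.53 and 0.38 and both were called. No other alternative called Bax in EAE, and in treated EAE only the fit of the 6 libraries compared did so. Bok, an effector that acts independently of the other two, had group means of 25.7, 22.2 and 19.1 with wide spread within groups.

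No BH3-only gene passed the test, of 5 tested among 7. Bid, which caspase-8 cuts to link death receptors to mitochondria, had group means of 502, 600.1 and 565 in naive, EAE and treated EAE, with both immunized groups above all naive libraries (0.26 ± 0.10 in EAE, adjusted p = 0.112). Bad, which survival signals switch off by phosphorylation, had group means of 105, 146 and 139 and a difference of 0.45 ± 0.19 in EAE (adjusted p = 0.146). As for Bax, it was called without EAE replicate 3, its lowest EAE library, at 0.63, and no other alternative called Bad in EAE. In treated EAE against naive the difference of Bad was 0.40 ± 0.19 (adjusted p = 0.179), with all treated libraries above all naive ones. Only the fit of the 6 libraries compared called Bad there. Bmf, which responds to loss of attachment, had group means of 93.7, 82.0 and 107, and its treated libraries were above all others. Bbc3, also called Puma and a main p53 target in apoptosis, had group means of 79.9, 81.6 and 91.3, and the interval of its difference in EAE against naive was -0.40 to 0.46. Bcl2l11, also called Bim, encodes the BH3-only protein that removes blood cells deprived of cytokines, and had group means of 157, 180.0 and 184. Bik, a BH3-only protein of the endoplasmic reticulum, and Pmaip1, the p53 target also called Noxa, each stayed between 0.00 and 13.5 in the 9 libraries, too low to test.

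The anti-apoptotic genes did not pass either. Bcl2 measured 478, 595 and 469 in naive replicates 1 to 3, 616, 612 and 626 in EAE and 606, 587 and 564 in treated EAE. All EAE libraries were above all naive and all treated libraries, and naive replicate 2 stood well above the other naive libraries. The difference was 0.28 ± 0.11 in EAE and 0.20 ± 0.11 in treated EAE against naive (adjusted p = 0.13 and 0.255). Without naive replicate 2 these were 0.38 and 0.31 and both were called. The only other alternative that called Bcl2 left the empty directions out of the model (EAE against naive, 0.27). Mcl1, on which blood stem cells depend, measured 2599, 2801 and 2135 in naive replicates 1 to 3, 2242, 2706 and 2836 in EAE and 2636, 2239.9 and 2334 in treated EAE. The 3 groups overlapped, and the interval of its difference was -0.23 to 0.33 in EAE and -0.39 to 0.18 between treated EAE and EAE. Bcl2l1, which encodes Bcl-xL, had group means of 278, 247 and 248.

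**Figure D5:**
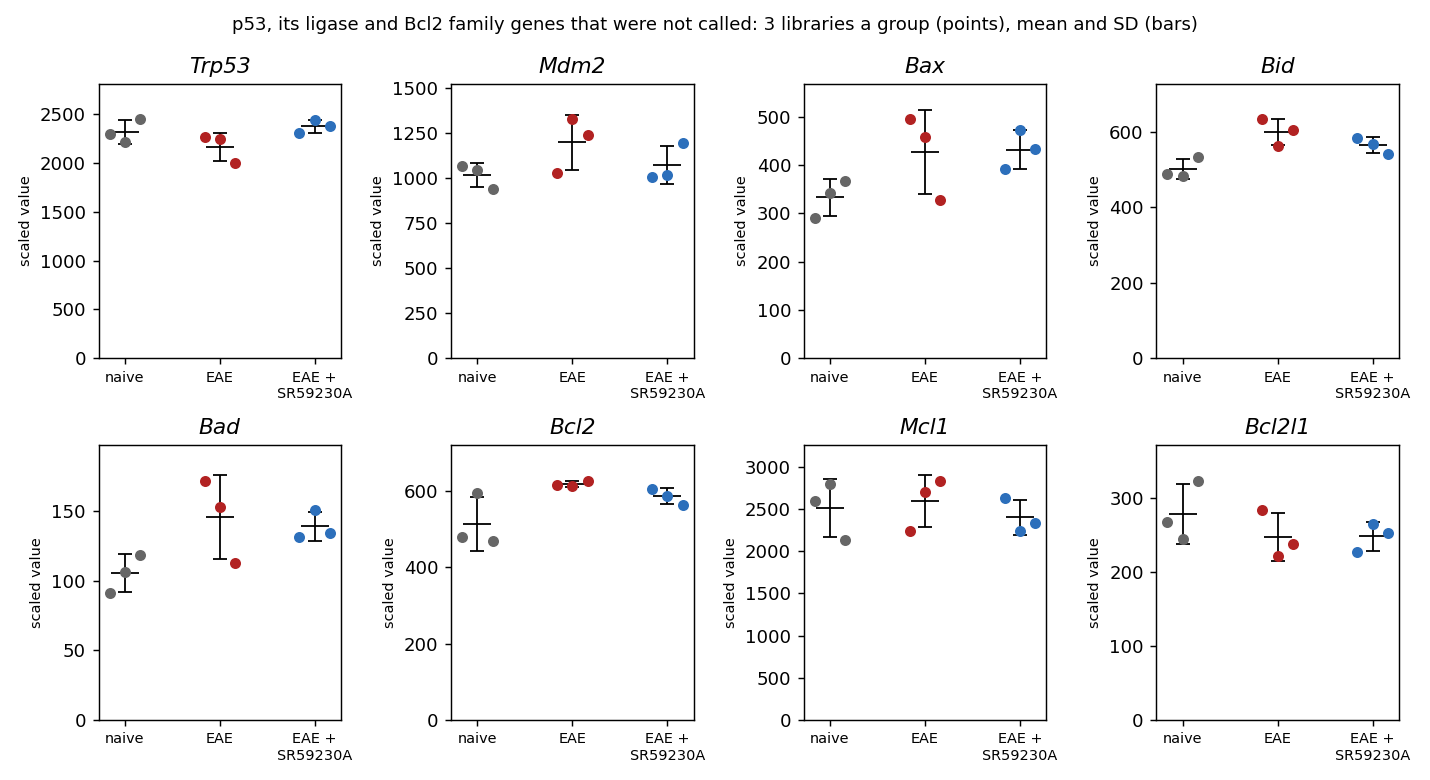
Scaled values of core members that were not called, with a point for each library and the group mean with its SD. Trp53 and Mcl1 overlap between naive and immunized mice, and single libraries such as EAE replicate 3 for Bax and naive replicate 2 for Bcl2 lie apart from their groups.

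Of the 4 genes of the apoptosome step, Apaf1 rose in both immunized groups. Apaf1, the scaffold of the apoptosome and a p53 target, measured 594, 572 and 586 in naive replicates 1 to 3, 822, 882 and 1007 in EAE and 761, 813 and 954 in treated EAE. The highest naive library was 594 and the lowest immunized one 761. The rise was 1.54-fold in EAE (0.63 ± 0.11, adjusted p = 0.00478) and 1.44-fold in treated EAE (0.52 ± 0.11, adjusted p = 0.0119), and between the immunized groups the difference was -0.10 ± 0.11. The treated call was lost with no scaling (adjusted p = 0.0554), and both were lost without the trend (0.0519 and 0.0701). Casp9, the caspase that the apoptosome activates, had group means of 75.7, 93.7 and 75.9 in naive, EAE and treated EAE. Its EAE libraries were above all others, with differences of 0.30 ± 0.19 against naive and -0.30 ± 0.19 between treated EAE and EAE, neither of which passed. Xiap, which blocks caspases, had group means of 769, 760.4 and 806. Diablo, which leaves mitochondria to neutralise Xiap, had group means of 1150.0, 1302 and 1269, with every immunized library above every naive one (0.18 ± 0.09 in EAE, adjusted p = 0.205).

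Among the 7 called members, Gadd45g, Aen, Bak1, Apaf1 and Ddit4 rose, and Sesn1 and Ccng2 fell. Gadd45g and Sesn1 were called in both comparisons against naive in 20 of 21 alternative analyses. The exception for both genes was a fit that carried the share of chemosensory receptor genes as a further term, which ended all 5 calls in EAE and all 7 in treated EAE and called only Btg2, at -1.96 and -2.88. That share was 0.151 to 0.181% in naive, 0.107 to 0.121% in EAE and 0.0807 to 0.1% in treated EAE, so the groups do not overlap in it and the term cannot be told apart from the groups. Without the mean-variance trend the calls of Aen in EAE (adjusted p = 0.109) and of Bak1 in EAE (0.0944) and treated EAE (0.121) were lost as well. The 2 calls of Bak1 were also lost with no scaling (adjusted p = 0.117 and 0.294), and that in treated EAE with a pseudocount of 0.1 (0.0507) or no filter (0.053).

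Other genes of the pathway gave similar shares. Of 139 listed p53 targets, p53 regulators, Bcl2 relatives and caspase or death receptor genes that are no members, 108 had a row and 104 were tested. In EAE against naive, 12 rose and 4 fell (15.4%). In treated EAE against naive, 13 rose and 2 fell (14.4%). None passed between treated EAE and EAE, where 1 of the 104 had an unadjusted p under 0.05. The median difference was 0.06 in each comparison against naive and 0.01 between treated EAE and EAE.

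Among the called genes, the largest rises were in Lif, a cytokine of the interleukin-6 family and a p53 target (1.74 ± 0.41 in EAE and 2.20 ± 0.41 in treated EAE against naive), and in the inflammatory caspase Casp4 (1.18 ± 0.25 and 0.86 ± 0.25). With the chemosensory term Lif turned to -0.66 and -1.37. Tigar, a p53 target that lowers glycolytic flux, rose by 0.95 and 0.84. Steap3, an endosomal iron reductase, rose by 0.59 in EAE and 0.43 in treated EAE, and Casp1, which matures interleukin-1 beta, by 0.51 and 0.61. In EAE, Ptpn14, a phosphatase that restrains the growth-promoting coactivator Yap, fell by 1.46, and Ephx1, a detoxifying epoxide hydrolase, fell by 0.90. Ppp1r13b, a cofactor that steers p53 to death genes, fell by 0.30 in EAE. Crebbp, an acetyltransferase that acts on p53, fell by 0.29 in both comparisons, and Rchy1, a ubiquitin ligase for p53, by 0.39 in treated EAE. Without naive replicate 1 the calls of Lif (0.0549), Ephx1 (0.078), Ppp1r13b (0.0878) and Crebbp (0.0612) in EAE, and of Casp4 (0.114), Tigar (0.0673), Rchy1 (0.0811) and Crebbp (0.0624) in treated EAE were lost, with adjusted p in parentheses. Each of them except Ephx1, Ppp1r13b and Crebbp in EAE was also lost without at least 1 library of an immunized group, and those 3 without naive replicate 3 (0.0552, 0.0568 and 0.0609).

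By list, the p53 targets outside the members gave 5 higher and 2 lower of 38 tested in EAE against naive (18.4% called), and 5 higher in treated EAE (13.2%). The p53 regulators gave 1 higher and 2 lower of 21 (14.3% called) in each of these comparisons. Other Bcl2 and BH3-like genes gave 1 higher of 15 (6.67%) in each, and the caspase and death receptor list 5 and 6 higher of 30 (16.7% and 20%). Over all tested genes 9.13% were higher and 5.1% lower in EAE, and 10.2% higher and 4.61% lower in treated EAE, and no test compared a list with them. Cdkn1a, which encodes p21 and is the textbook p53 target for cell cycle arrest, did not pass. Its values were 908, 2077 and 649.9 (naive), 1634, 2163 and 2635 (EAE) and 2013, 1916 and 2123 (treated EAE). Naive replicate 2 lay within the range of the immunized libraries, and the difference was 0.98 ± 0.33 in EAE and 0.92 ± 0.33 in treated EAE against naive (adjusted p = 0.0688 and 0.0812). Without naive replicate 2 these were 1.45 and 1.39, and Cdkn1a was called in both comparisons. In EAE against naive it was also called without EAE replicate 1, at 1.16, and with the early-response level as a further term, at 0.71. That term rests on a list chosen after values of these libraries had been seen.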

How the data were processed

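RNA of LSK cells was compared in 9 libraries, 3 in each of 3 groups. The deposited values are treated as a score: the authors deposited whole numbers per gene, the submitters' processing notes name DESeq2, and the sources used here give no aligner, genome build or read depth. Components 7 and 8 of the log2 values, computed on the 4577 genes averaging 500 or more, held 7.65e-05% and 6.77e-05% of the variance, so the values had been adjusted and no count test was used.

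From the deposited values, libraries were scaled by the median of ratios, and genes with a deposited value of at least 10 in 3 libraries were tested on log2(scaled value + 1) with limma-trend (limma 3.58.1, R 4.3.3), 2-sided. The fit had a coefficient per group and the 2 empty directions as covariates, 7.52 prior degrees of freedom and Benjamini-Hochberg adjustment. The fold changes understate those of low genes. The procedure was also run on simulated data with known changes, where the fit was given the exact directions that had been removed. In the deposited values those directions had to be estimated, so no conclusion is drawn here from the simulation. An exact permutation test of 3 against 3 cannot go below 0.1 and was not used. Replicate numbers follow accession order and pair nothing. The labels do not state that libraries of a group come from separate extractions, so p-values measure the spread between these samples.

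Members and lists were chosen with earlier results of these data known. Library values are given for called members, Trp53, Bax, Bcl2 and Mcl1, and for others where single libraries matter. Of the other pathway genes, up to 4 called in each direction with the largest change are named, and Cdkn1a always. Alternatives changed scaling, pseudocount, filter, model terms and libraries. The share of chemosensory receptor genes, 1137 genes that these cells are not known to use, served as a measure of background. Protein sequences were not used here.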

Additional observations from a re-analysis of the deposited data

How the results depend on the processing

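The count of members called in EAE against naive (5) became 3 with no scaling, 3 with upper-quartile scaling, 2 without the mean-variance trend and 1 with the chemosensory share as a further term, and ranged from 3 to 8 when single libraries were left out. In treated EAE against naive (7) it became 3 without the trend and 1 with the chemosensory term, and ranged from 5 to 8 without single libraries. That 1 call was Btg2 each time, at -1.96 and -2.88. Between treated EAE and EAE it was 0 in all 21 alternatives. Calls over all genes in EAE against naive (1853) became 1059 with no scaling, 778 without the trend, 100 with the chemosensory term and 3485 when the empty directions were not modelled. In treated EAE against naive (1932) they became 1073, 864, 27 and 3920 in the same order, 4440 with only the 6 libraries compared, and 1237 to 3321 without single libraries. Between treated EAE and EAE (1) they became 0 without the trend and 2 with only the 6 libraries. With the chemosensory term Lif reversed, to -0.66 in EAE and -1.37 in treated EAE against naive. No called member reversed in any alternative. Apart from the chemosensory share, which does not overlap between groups, the causes were not tested. When a library was left out, its group had 2, and the shared spread of the fit was used. No paired analysis was possible because no label number marks a shared batch, litter or day, and the groups compared share fewer than 2 numbers. The adjusted values keep no read depth, so counting error is unknown, and low members such as Fas, Bok, Eda2r, Phlda3, Sesn3, Bik and Pmaip1 could not be judged for it.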
